A study of Mus musculus with 30 samples.

Results

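A set of 10 genes that mark the endothelium, the cell layer lining blood vessels, were followed in dorsal pancreata of mouse embryos of the NMRI stock over 5 days of gestation, embryonic day 12.5 (e12.5) being the first and e16.5 the last: Pecam1, Cd34, Vwf, Kdr, Flt1, Tek, Tie1, Cdh5, Eng and Esam. Their members on the arrays were all probe sets whose platform annotation gave a single gene symbol, and that symbol one of the 10. This found 18 of 36701 probe sets and each of the 10 genes, of 15964 genes with a symbol. Of these probe sets, 13 were on chip A, 3 on chip B and 2 on chip C of the Affymetrix MG-U74 version 2 set. At each of the 5 daily stages, dorsal pancreata were pooled by litter, and RNA of the pool was labelled in 2 reactions, each hybridised to all 3 chips, which gave 30 arrays. No genotype or treatment is named for any stage, so the stages differ by age alone as far as the labels say. How many embryos a pool held is not stated.

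Each stage thus rests on 1 pool, and the spread between its 2 labelling reactions is technical. Where reactions of stages are said below not to overlap, only this technical spread is set against the difference. How many of all probe sets separate likewise is not given. Dorsal pancreas RNA holds RNA of every cell in the bud, and the values are relative to it. Fewer endothelial cells, a smaller share of them as other cells increase, and less RNA per endothelial cell thus cannot be told apart. A list of 13 genes of pancreatic epithelium, all measured, had a median brightness at percentile 87.3 of the chip. Its mean log2 value went from 6.23 and 6.29 in the reactions of e12.5 to 7.36 and 7.34 at e16.5. The acinar enzyme gene Cpa1, the hormone gene Gcg and the keratin gene Krt8 were among its bright members, named here as examples. Of the 18 endothelial probe sets, 15 lay above the median of their chip. The other 3 were those of Tek, 1 of Flt1 and 1 of Tie1. Some of the 15 lay only just above the median, such as 97052_at of Vwf (percentile 52.9). The chip C probe sets of Flt1 (53.2) and Kdr (55.1) were others. Lying above a median is not detection, and without detection calls none of the 18 is shown to be above background. The medians of the arrays ran from 5.71 to 5.76 (chip A), 5.26 to 5.31 (chip B) and 3.99 to 4.02 (chip C).

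Endothelial cells receive vascular endothelial growth factor (VEGF) through the receptor kinases that Kdr and Flt1 encode, and angiopoietins through the kinase that Tek encodes, with its relative Tie1. They adhere to each other through VE-cadherin (Cdh5), ESAM (Esam) and PECAM-1 (Pecam1), carry CD34 and the TGF-beta co-receptor endoglin (Eng), and store von Willebrand factor (Vwf) for clotting. In the pancreatic bud, vessels lie close to the epithelium, which makes VEGF, and endothelial cells are known to signal to the epithelium as it forms endocrine and acinar cells.

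Over the 5 stages most endothelial probe sets stayed close to their starting level. How many of all probe sets did so likewise was not counted. The pool means of 16 of the 18 spanned under 0.5 log2 units, and the span ran from 0.083 for a probe set of Vwf to 1.20 for the other one. Vwf fell 2.33-fold on that second probe set, Tie1 fell 1.31-fold and Cdh5 fell 1.30-fold on 1 probe set each, and Cd34 rose by 0.58 log2 units on 1 of 2. Pecam1 and Eng had fitted changes between -0.13 and -0.0017 log2 units on their 3 probe sets. In the line fitted over the 5 pool means (limma, Benjamini-Hochberg adjusted p under 0.05 over all probe sets of the 3 chips, here called rising or falling), 1 of 18 endothelial probe sets rose, beside 10.6% of all probe sets. Another 3 fell, beside 13.1% of all probe sets. The members' shares, 5.56% and 16.7%, are near these backgrounds. Their median fitted change over 4 days was -0.00020 log2 units, beside 0.035 over all probe sets.

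**Figure D1:**
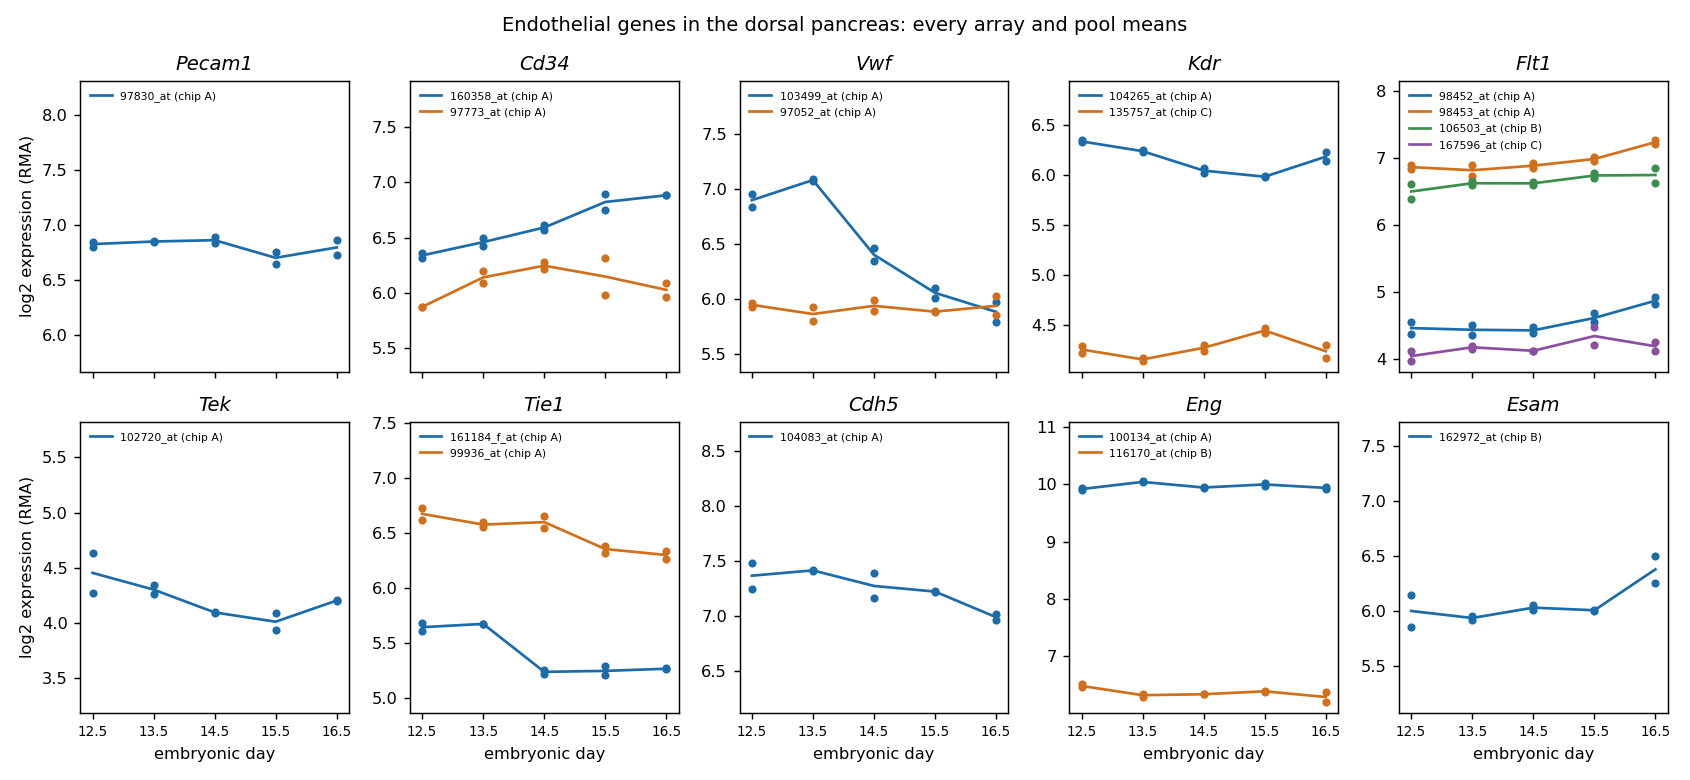
Log2 expression (RMA, vertical axes) against embryonic day for the 10 endothelial genes, one panel each. Points are single arrays, 2 labelling reactions per pool, and lines join the pool means of each probe set; vertical axes differ between panels, and levels of different probe sets are not comparable. The Vwf line on 103499_at drops after e13.5, while that on 97052_at and those of Pecam1 and Eng are nearly level.

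For 6 of the 10 genes a RefSeq promoter window on GRCm38.p6 was at hand, 250 bases before to 50 after an annotated start; Pecam1, Vwf, Cdh5 and Esam were not matched. For Cd34, Tie1 and Eng that start is the outer end of the gene as given here. For Kdr, Flt1 and Tek it lies 617, 427 and 203 bases inside the gene's outer end, so these windows lie partly or wholly within the gene's printed span. The windows of 4 are printed 5′ to 3′ along the gene, because they belong to the gene that rose (Cd34), to 1 that fell (Tie1) and to both VEGF receptors (Flt1 and Kdr). They lie at chr1:194938571-194938870 on the plus strand for Cd34, chr5:147725962-147726261 on the minus strand for Flt1, chr5:75978406-75978705 on the minus strand for Kdr and chr4:118489800-118490099 on the minus strand for Tie1. Capitals mark AGGAAG or CGGAAG on either strand, a core bound by ETS factors, a family that includes activators of endothelial genes.
Cd34: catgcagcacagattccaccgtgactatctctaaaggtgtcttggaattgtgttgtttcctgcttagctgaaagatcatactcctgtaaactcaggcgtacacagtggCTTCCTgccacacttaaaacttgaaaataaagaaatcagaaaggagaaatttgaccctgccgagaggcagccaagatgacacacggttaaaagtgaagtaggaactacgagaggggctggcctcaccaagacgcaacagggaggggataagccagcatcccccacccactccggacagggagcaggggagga
Flt1: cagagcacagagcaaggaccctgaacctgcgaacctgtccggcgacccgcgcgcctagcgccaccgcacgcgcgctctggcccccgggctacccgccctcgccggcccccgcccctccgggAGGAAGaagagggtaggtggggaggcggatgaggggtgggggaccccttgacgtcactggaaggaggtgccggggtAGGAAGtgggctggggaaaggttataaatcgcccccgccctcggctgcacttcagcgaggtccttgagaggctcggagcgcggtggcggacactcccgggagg
Kdr: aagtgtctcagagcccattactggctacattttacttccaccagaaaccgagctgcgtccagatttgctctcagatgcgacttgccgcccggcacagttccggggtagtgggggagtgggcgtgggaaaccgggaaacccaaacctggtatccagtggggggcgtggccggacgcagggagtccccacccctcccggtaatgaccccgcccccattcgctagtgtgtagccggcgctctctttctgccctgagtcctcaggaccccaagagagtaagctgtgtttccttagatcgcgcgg
Tie1: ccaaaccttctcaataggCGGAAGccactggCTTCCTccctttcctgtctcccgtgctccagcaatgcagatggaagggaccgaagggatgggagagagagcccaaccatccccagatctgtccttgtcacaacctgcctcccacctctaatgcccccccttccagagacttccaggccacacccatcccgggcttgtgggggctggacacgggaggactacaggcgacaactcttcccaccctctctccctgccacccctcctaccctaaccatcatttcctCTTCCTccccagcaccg

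This core was present in 4 of the 6 windows, those of Cd34, Flt1, Tie1 and Eng, and in 46.5% of all 32851 promoter windows. Tie1 held 3 matches, Flt1 and Eng 2 each and Cd34 1, while no match was in the windows of Kdr and Tek. The GATA motif AGATAA was found in 1 of the 6, that of Tek, and in 11.2% of all windows. The FOX:ETS motif AACAGGAA, which can overlap the ETS core, was in 0 of the 6 and in 2.65% of all. These matches describe letters and not bound sites, and their part in the stage courses was not tested.

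Kdr, which encodes the main VEGF signalling receptor VEGFR2 (chromosome 5, 75932827 to 75979072), had no called trend. On its chip A probe set 104265_at, the reaction pairs read 6.34 and 6.33 at e12.5, 6.25 and 6.23 at e13.5, 6.02 and 6.07 at e14.5, 5.98 and 5.99 at e15.5, and 6.14 and 6.23 at e16.5. Each stage up to e15.5 lay below the stage before it, and e16.5 lay above e15.5 and e14.5, with no overlap of reactions between e12.5 and the later stages. The fitted change over 4 days was -0.22 ± 0.14 log2 units (± SE, n = 5 pools, 95% interval -0.56 to 0.11, limma adjusted p = 0.278). Leaving out the pool of e16.5 gave -0.50 (adjusted p = 0.0475), and leaving out that of e12.5 gave -0.090 (adjusted p = 0.790). The difference of e16.5 from e15.5 was 0.20 ± 0.06 (limma adjusted p = 0.0336 over 10 arrays), well under the 2-fold minimum set for stage comparisons. The chip C probe set 135757_at took another course, with means of 4.26 at e12.5, 4.45 at e15.5, its highest, and 4.24 at the end, with a fitted change of 0.10 ± 0.11 (limma adjusted p = 0.536).

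Flt1 encodes VEGFR1, a receptor that binds VEGF tightly and in its soluble form acts as a decoy (chromosome 5, 147561604 to 147726438). All 4 of its probe sets, on the 3 chips, had a positive fitted change, and none was called. On 98453_at the reaction pairs were 6.89 and 6.83 at e12.5, 6.73 and 6.90 at e13.5, 6.85 and 6.92 at e14.5, 6.96 and 7.01 at e15.5, and 7.21 and 7.26 at e16.5. The e16.5 pair lay above each other array, while the first 3 stages overlapped. The fitted changes were 0.40 ± 0.13 on 98452_at and 0.37 ± 0.12 on 98453_at of chip A (limma adjusted p = 0.0712 and 0.0673). They were 0.24 ± 0.10 on 106503_at of chip B and 0.18 ± 0.10 on 167596_at of chip C (limma adjusted p = 0.0981 and 0.218). On 98453_at, the change passed without e12.5 replicate 1, at 0.39 (adjusted p = 0.0465), and on 98452_at likewise, at 0.47 (adjusted p = 0.0309). On 106503_at it passed without e16.5 replicate 1, at 0.33 (adjusted p = 0.0434), and was 0.15 without e12.5 replicate 1 or without e16.5 replicate 2 (adjusted p = 0.268 and 0.331). Leaving out the pool of e16.5 lowered the changes on 98452_at and 98453_at to 0.18 and 0.17.

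Tek encodes TIE2, the angiopoietin receptor (chromosome 4, 94739086 to 94874976). Its probe set 102720_at was dim, at percentile 26.2 of chip A, and the e12.5 reactions read 4.64 and 4.27, the widest gap between reactions of any endothelial probe set. The stage means were 4.45, 4.30, 4.09, 4.01 and 4.20 in order of age, a course with its lowest point at e15.5 as on the chip A probe set of Kdr. Its fitted change was -0.32 ± 0.15 (95% interval -0.66 to 0.03, limma adjusted p = 0.157), and with the pool of e16.5 left out it was -0.62 (adjusted p = 0.0271). Without e12.5 replicate 1, the higher reaction of that stage, it was -0.17 (adjusted p = 0.370), and with the pool of e12.5 left out -0.15 (adjusted p = 0.639).

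Tie1 encodes a receptor kinase that pairs with TIE2 and has no known ligand that binds it directly with high affinity (chromosome 4, 118471191 to 118489849). On 99936_at the reaction pairs were 6.62 and 6.73 at e12.5, 6.60 and 6.56 at e13.5, 6.66 and 6.55 at e14.5, 6.39 and 6.32 at e15.5, and 6.26 and 6.34 at e16.5. The arrays of e15.5 and e16.5 all lay below those of the first 3 stages, which overlapped. It fell by 0.39 ± 0.10 over 4 days (95% interval of the change -0.63 to -0.15, n = 5 pools, limma adjusted p = 0.0358). Leaving out 1 reaction ended the call for e12.5 replicate 2 (adjusted p = 0.0653) and e14.5 replicate 2 (0.0601). Leaving out 1 pool ended it for e12.5 (adjusted p = 0.115), e13.5 (0.0910), e15.5 (0.0691) and e16.5 (0.145), with changes of -0.36 to -0.43. Cyclic loess scaling ended it as well (-0.33, adjusted p = 0.0518). The other probe set, 161184_f_at, of a design shared by similar sequences, stepped from 5.68 at e13.5 to 5.24 at e14.5 and stayed at 5.25 and 5.27. Its fitted change was larger, -0.47 ± 0.15, but was not called (limma adjusted p = 0.0610). It passed without e12.5 replicate 1, at -0.50 (adjusted p = 0.04997), and without the e14.5 pool, at -0.47 (adjusted p = 0.0470).

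Endoglin, the TGF-beta co-receptor encoded by Eng (chromosome 2, 32646595 to 32682669), was measured on a bright probe set of chip A, 100134_at, at percentile 98.0. There the 10 arrays lay between 9.90 and 10.05, and its fitted change was -0.0017 ± 0.098 (95% interval -0.24 to 0.23, limma adjusted p = 0.991). The sign of so small a change turned with array scaling, to 0.032 with arrays centred on their medians and 0.19 with cyclic loess. On 116170_at of chip B the pool means of e12.5 and e16.5 were 6.47 and 6.28, with a fitted change of -0.13 ± 0.10 (95% interval -0.37 to 0.11, limma adjusted p = 0.393).

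Among the adhesion genes, Cdh5, which encodes VE-cadherin, the cadherin of endothelial adherens junctions (chromosome 8, 104101613 to 104144504), fell. On 104083_at the reaction pairs were 7.25 and 7.48 at e12.5, 7.42 and 7.41 at e13.5, 7.39 and 7.16 at e14.5, 7.23 and 7.22 at e15.5, and 6.96 and 7.02 at e16.5. The e16.5 pair lay below each other array, and the reactions of e12.5 and of e14.5 were as far apart as the means of e12.5 and e15.5 or more. The change was -0.38 ± 0.11 (95% interval -0.64 to -0.12, limma adjusted p = 0.0487). This call held in 3 of 23 alternatives. It was lost when any array other than e12.5 replicate 1 was left out, with an adjusted p of 0.174 for e12.5 replicate 2 and of 0.0502 to 0.0765 for each reaction of the later stages. It was also lost when any pool was left out, and leaving out that of e16.5 gave a change of -0.23 (adjusted p = 0.288).

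Pecam1, a surface molecule of endothelial cells, platelets and some leukocytes (chromosome 11, 106654213 to 106715281), was nearly level. The arrays of 97830_at lay between 6.65 and 6.89, and the fitted change was -0.08 ± 0.10 (95% interval -0.32 to 0.16, limma adjusted p = 0.573). Esam, a junction molecule of endothelial cells and platelets (chromosome 9, 37528089 to 37538319), stayed between 5.85 and 6.15 on the arrays of the first 4 stages, with reactions of 6.15 and 5.85 at e12.5. At e16.5 its reactions read 6.26 and 6.50, above each earlier array. Its fitted change on 162972_at was 0.33 ± 0.14 (limma adjusted p = 0.114), 0.45 without e12.5 replicate 1 (adjusted p = 0.0318) and 0.045 with the pool of e16.5 left out. The step from e15.5 to e16.5 was 0.37 ± 0.09 (limma adjusted p = 0.0116 over 10 arrays), or 1.29-fold, under the 2-fold minimum.

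Cd34 encodes a sialomucin of endothelial cells and blood progenitors (chromosome 1, 194938821 to 194961292). On 160358_at the reaction pairs were 6.31 and 6.36 at e12.5, 6.42 and 6.49 at e13.5, 6.57 and 6.62 at e14.5, 6.90 and 6.75 at e15.5, and 6.89 and 6.88 at e16.5. The pairs of the first 4 stages did not overlap and each lay above the one before, and those of e15.5 and e16.5 overlapped. It rose by 0.58 ± 0.09 over 4 days (95% interval 0.37 to 0.80, n = 5 pools, limma adjusted p = 0.00683), and the rise passed in all 23 alternatives, at 0.55 to 0.65 (adjusted p up to 0.0373). On the second probe set, 97773_at, also on chip A, the stage means were 5.87, 6.14, 6.24, 6.15 and 6.02. This course peaked at e14.5, and its fitted change of 0.13 ± 0.16 was not called (95% interval -0.25 to 0.50, limma adjusted p = 0.585). Beside this, 3 of 19 probe sets of a list of blood progenitor genes rose and none fell (limma). At an unadjusted p under 0.05 (limma), 3 of the list were up and 2 down, beside 7219 and 7042 of all 36701 probe sets. The mean of that list was 4.02 and 4.06 at e12.5 and 4.08 and 4.11 at e16.5, and its part in the Cd34 rise was not tested.

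Vwf, which encodes the clotting glycoprotein stored in endothelial granules and in platelets (chromosome 6, 125552948 to 125686679), showed the largest change of the 10 genes. On 103499_at the reaction pairs read 6.95 and 6.84 at e12.5, 7.07 and 7.09 at e13.5, 6.34 and 6.46 at e14.5, 6.10 and 6.01 at e15.5, and 5.97 and 5.79 at e16.5. No pair overlapped another, the highest were at e13.5 and the later stages lay below e12.5 one under the other. The pairs are reactions of 1 pool each, so this separation is over technical spread only. The trend below is over pools. It fell by 1.22 ± 0.20 over 4 days (95% interval of the change -1.71 to -0.73, n = 5 pools, limma adjusted p = 0.00863). Leaving out the pool of e16.5 gave a change of -1.28 but ended the call (adjusted p = 0.0506).

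The step from e13.5 to e14.5 was the largest of the daily steps of any endothelial probe set, at -0.68 ± 0.08 (limma adjusted p = 0.000565 over 10 arrays), or 1.60-fold. The second Vwf probe set on the same chip, 97052_at, did not follow. Its pool means lay between 5.86 and 5.95, and its fitted change was 0.0013 ± 0.092 (95% interval -0.22 to 0.22, limma adjusted p = 0.993), and the intervals of the 2 probe sets did not overlap. Platelets and their precursors also make Vwf. In a list of genes of megakaryocytes and platelets 1 of 14 probe sets, that of Itgb3, rose and none fell (limma). At an unadjusted p under 0.05 (limma), 3 of the list were up and 0 down, beside 7219 and 7042 of all 36701 probe sets. The mean of that list was 4.72 and 4.75 at e12.5 and 4.89 and 4.92 at e16.5, and its part in the course of Vwf was not tested.

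**Figure D2:**
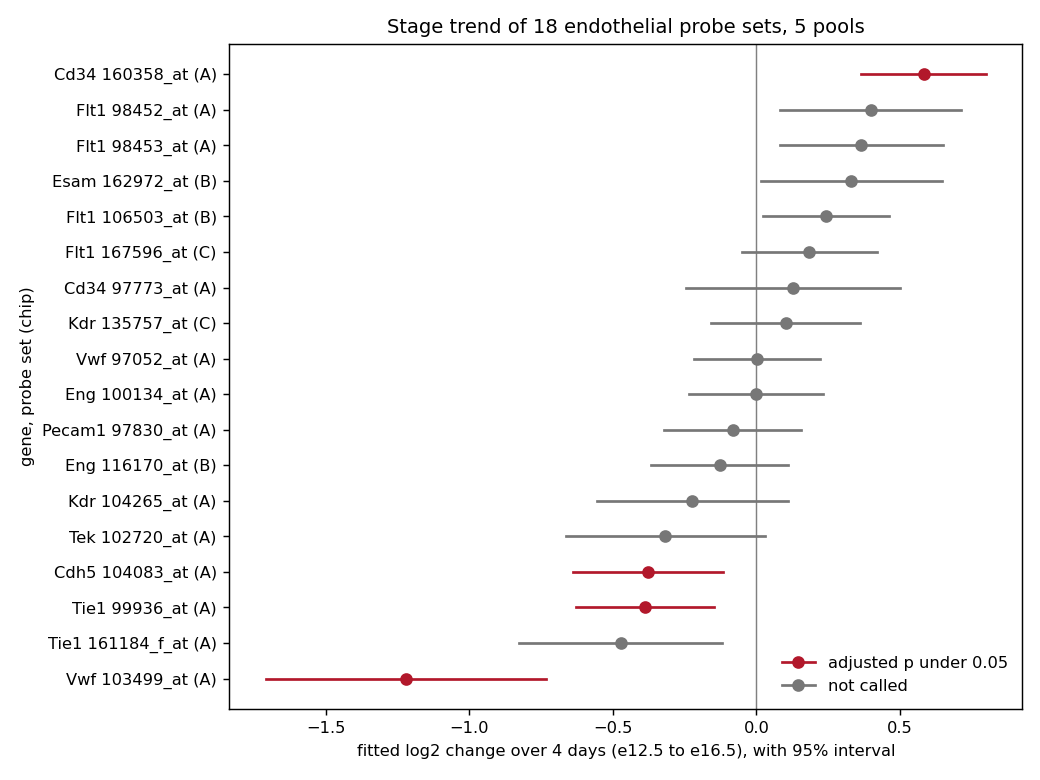
Fitted log2 change over 4 days (horizontal axis) for each of the 18 endothelial probe sets, from the line over 5 pool means, with its 95% interval. Red marks the 4 probe sets with an adjusted p under 0.05: 103499_at of Vwf at -1.22, 99936_at of Tie1 at -0.39, 104083_at of Cdh5 at -0.38 and 160358_at of Cd34 at 0.58.

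Stage pairs were then compared over the 10 arrays of each chip, where a call needed an adjusted p under 0.05 (limma, Benjamini-Hochberg) and a change of at least 2-fold. In e16.5 against e12.5, 1 of 18 endothelial probe sets was called, beside 4.46% of all probe sets. This was 103499_at of Vwf, lower at e16.5 by a change of -1.01 ± 0.08, or 2.02-fold (adjusted p = 6.57e-07). That fold lies at the minimum, and the change was -0.96 without e12.5 replicate 1 and -0.92 without e16.5 replicate 2, so that it was no longer called. Without the fold minimum, 5 endothelial probe sets were higher at e16.5 (1 of Cd34, 3 of Flt1 and that of Esam) and 6 were lower (1 each of Vwf, Kdr, Cdh5 and Eng and both of Tie1). At this threshold 49.8% of all probe sets passed. These p-values measure only the spread between labelling reactions of one pool.

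No endothelial probe set reached 2-fold from one day to the next. In e13.5 against e12.5, 0 of 18 were called, beside 0.128% of all probe sets. At an unadjusted p under 0.05 (limma) 3 of 18 passed, beside 23.2% of all probe sets. In e14.5 against e13.5, 0 of 18 were called, beside 0.131%, and 3 passed at an unadjusted p under 0.05 (limma), beside 15.97%. The lower values at e14.5 of 103499_at of Vwf and of 161184_f_at of Tie1 (-0.44 ± 0.06, adjusted p = 0.00220) passed by adjusted p alone, as did 3.16% of all probe sets. In e15.5 against e14.5, 0 of 18 were called, beside 0.365%, and 6 passed at an unadjusted p under 0.05 (limma), beside 23.1%. By adjusted p alone 3 of 18 passed, beside 10.7% of all probe sets. At e15.5, 160358_at of Cd34 was higher (0.23 ± 0.07, limma adjusted p = 0.0467). Lower were 103499_at of Vwf (-0.35 ± 0.08, limma adjusted p = 0.0147) and 99936_at of Tie1 (-0.24 ± 0.07, limma adjusted p = 0.0413). In e16.5 against e15.5, 0 of 18 were called, beside 0.330%, and 7 passed at an unadjusted p under 0.05 (limma), beside 33.2%. By adjusted p alone, 98453_at of Flt1 (0.25 ± 0.07), 104265_at of Kdr and the probe set of Esam were higher at e16.5, 3 of 18 beside 20.5% of all probe sets. For e14.5 against the mean of e12.5 and e16.5, 0 of 18 were called, beside 0.218%, and 6 passed at an unadjusted p under 0.05 (limma), beside 25.2%. By adjusted p alone 3 of 18 passed, beside 12.0%. The middle stage was 0.30 ± 0.08 higher on 97773_at of Cd34 (limma adjusted p = 0.0401). It was lower on 104265_at of Kdr and on 161184_f_at of Tie1, with a difference of -0.22 ± 0.05 on each (limma adjusted p = 0.0184 and 0.0195).

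The 103499_at course of Vwf was the one endothelial course whose pool means spanned at least 1 log2 unit. Its nearest courses among 10831 probe sets of other named genes on chip A, by Euclidean distance between pool means centred on their own mean over 5 stages, were those of Apoe, Grik1 and Heph. Apoe encodes apolipoprotein E, Grik1 a kainate receptor subunit and Heph the iron oxidase hephaestin. The distances were 0.114, 0.118 and 0.141 log2 units. Apoe went through 9.83, 9.91, 9.28, 8.87 and 8.82 over the 5 stages, with a fall of 1.23 ± 0.19 (fitted change -1.23, limma adjusted p = 0.00675). Each of the 3 was also highest at e13.5 and lowest at e16.5. They were chosen for nearness to this course, so the shared shape and fall follow from the choice. Grik1 and Heph were dim, with e16.5 means of 3.06 and 3.56.

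**Figure D3:**
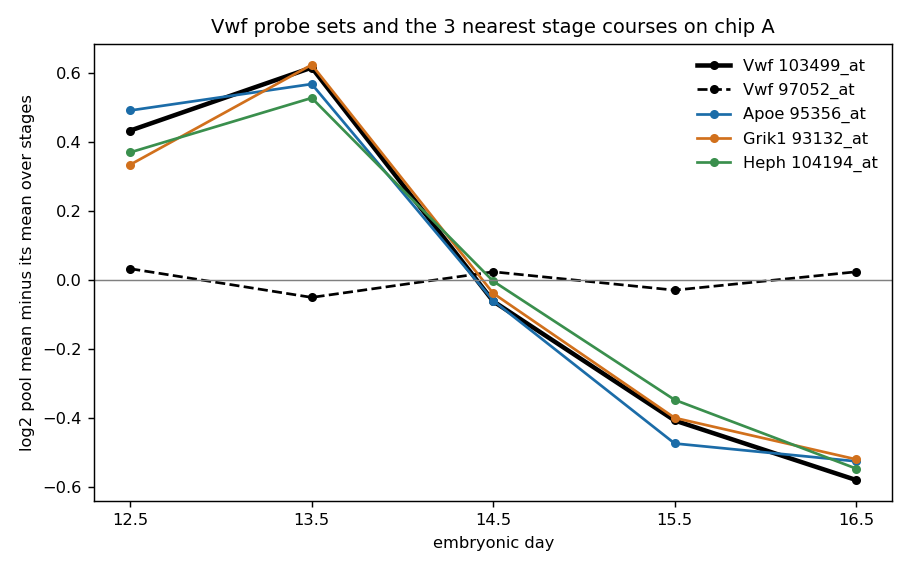
Log2 pool means, each minus its own mean over the 5 stages (vertical axis), against embryonic day, for both Vwf probe sets (black, dashed for 97052_at) and the 3 nearest courses on chip A (coloured). Apoe, Grik1 and Heph, chosen for nearness to 103499_at of Vwf, were like it highest at e13.5 and lowest at e16.5. The means of 97052_at spanned 0.083 log2 units.

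Other genes of vessels were taken from 5 lists, with 94 of 102 genes measured on 188 probe sets. Of these, 9 probe sets rose and 38 fell, or 4.79% and 20.2%, with a median fitted change of -0.12, beside 10.6%, 13.1% and 0.035 over all probe sets. They came from 7 and 26 genes, as some genes had several called probe sets. The falling count of probe sets was 22 without the e13.5 pool, where 8.99% of all probe sets fell. The rising count was 4 without the e12.5, the e13.5 or the e16.5 pool, where 5.11%, 6.01% and 3.47% of all probe sets rose. At an unadjusted p under 0.05 (limma), used for some of the lists below, 7219 of all 36701 probe sets were up and 7042 down. Values given for these genes are those of single probe sets, and other probe sets of the same gene need not share them. Several of these genes are also used by other cells of the bud, so their courses are not those of endothelium alone.

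In the list of VEGF ligands and co-receptors, 2 of 14 probe sets fell and none rose (limma; 3 and 1 at an unadjusted p under 0.05). The co-receptor gene Nrp2 fell by 1.43 ± 0.17 (change -1.43), with pool means of 7.31 at the first stage and 5.74 at the last, and the lymphatic growth factor gene Vegfc fell by 0.74 ± 0.17 (change -0.74) from a dim 4.96. The ligand gene Vegfa, named here for its role after its values were seen, had changes of -0.43 ± 0.16, -0.08 ± 0.10 and -0.20 ± 0.10 on 3 probe sets (limma adjusted p = 0.0903, 0.606 and 0.170). Of 25 probe sets of angiopoietin and TGF-beta partners, 8 fell and none rose (limma, 11 and 2 at an unadjusted p under 0.05). The 8 came from 5 genes. Smad5, a signal transducer of BMP receptors, fell on all 3 of its probe sets, with changes of -0.57 ± 0.11 on chip A and -1.46 ± 0.13 on chip B, the smallest and the largest. The receptor gene Bmpr2 fell on 2 of 5 probe sets (-0.89 ± 0.09 on the more strongly changed), and Tgfbr2 on 1 of 2 (-0.76 ± 0.10), its other probe set reading 0.23 ± 0.11 (limma adjusted p = 0.180). The angiopoietin gene Angpt2 and the endoglin partner Acvrl1, also named for their roles, were not called, with -0.31 ± 0.09 for Angpt2 (limma adjusted p = 0.0572) and 0.12 to 0.34 over 4 probe sets of Acvrl1.

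Transcription factor genes of the endothelium had 15 falling probe sets of 53 and none rising (limma, 21 and 2 at an unadjusted p under 0.05). The 15 came from 8 genes. Nr2f2, a factor of veins and of mesenchyme, fell on 3 of 4 probe sets, with changes of -2.08 ± 0.18 on chip B, -1.72 ± 0.13 on chip C and -1.07 ± 0.12 on chip A. Ets1, whose product binds the ETS core, changed by -1.22 ± 0.13 on a chip C probe set. In the list of surface and junction genes, 7 of 77 probe sets rose and 10 fell. Elastin (Eln), a matrix protein, rose by 1.45 ± 0.13, and the endothelin receptor gene Ednrb (-1.75 ± 0.26), which neural crest cells also use and whose other probe set was not called (-0.51 ± 0.17), the junction gene Jam3 (-1.29 ± 0.16, its other probe set reading 0.21 ± 0.08 and not called) and the gap junction gene Gja1 (-1.22 ± 0.30) fell. Of the Notch and ephrin genes, 3 of 19 probe sets fell and 2 rose, or 15.8% and 10.5%, also near the shares of all probe sets. The ligand gene Jag1 fell on chip B (-1.67 ± 0.11 and -0.73 ± 0.11) and rose by 0.33 ± 0.08 on chip C, the arterial ephrin gene Efnb2 fell (-0.96 ± 0.09), and Dll1 rose by 0.48 ± 0.12 on a dim chip C probe set.

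Markers of cells that lie around or inside vessels were set beside the members. Of all probe sets, 10.6% rose and 13.1% fell. Of 23 probe sets of mural cells, the pericytes and smooth muscle of vessel walls, 7 fell and 2 rose. Pdgfrb (-1.19 ± 0.14) and Abcc9 (-1.19 ± 0.15 and -1.18 ± 0.17, with 1 more probe set not called) fell, and Anpep, which epithelia also express, rose by 2.36 ± 0.34. The list mean was 5.55 and 5.58 in the reactions of the first stage and 5.39 and 5.44 in those of the last. Of 22 leukocyte probe sets none rose and none fell (limma). At an unadjusted p under 0.05 (limma), 5 of them were up and 2 down, beside 7219 and 7042 of all 36701 probe sets. The largest leukocyte change was that of Lyz2, at 1.17 ± 0.42 (limma adjusted p = 0.0894). Of 13 red cell probe sets 5 fell and 2 rose, with Hbb-y at -6.28 ± 0.52 and -5.52 ± 0.68, Hba-x at -5.35 ± 0.42 and Alas2 at 1.77 ± 0.29. Mesenchyme genes had 5 falling and 2 rising of 18 probe sets, led by Tcf21 (-2.57 ± 0.22), Snai2 (-1.99 ± 0.19), Pdgfra (-1.67 ± 0.22 on 1 of 3 probe sets) and Postn (1.66 ± 0.15). Pancreatic epithelium had 13 rising and 4 falling of 27, led by Ins2 (7.53 ± 0.86), Prss2 (6.47 ± 0.57), Cela1 (5.05 ± 0.16) and Ptf1a (3.45 ± 0.28). The part of these cells' RNA in the endothelial values was not tested.

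**Figure D4:**
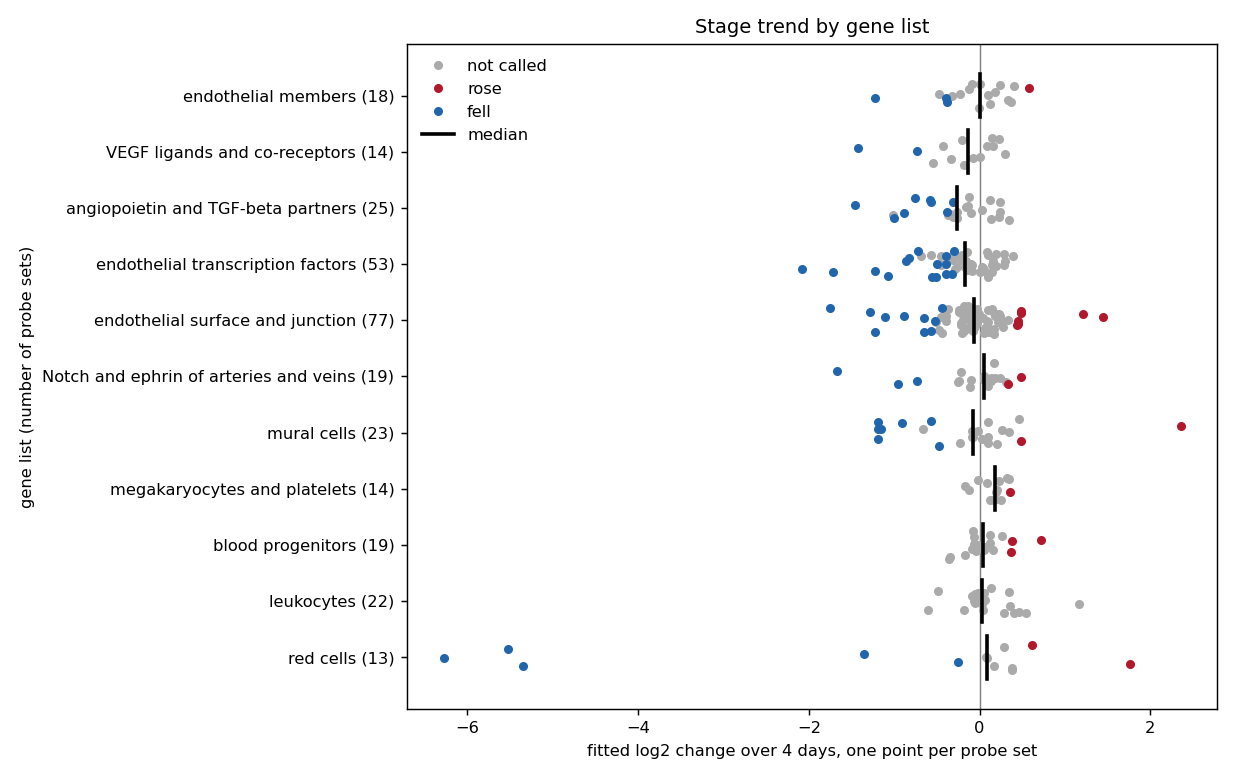
Fitted log2 change over 4 days (horizontal axis), one point per probe set, for the endothelial members, 5 lists of other vessel genes and 5 lists of other cell types, with the number of probe sets in brackets and a black bar at the median. Red points rose and blue points fell at an adjusted p under 0.05; the endothelial members span -1.22 to 0.58, while red cell globins reach -6.28.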

How the data were processed

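The authors deposited RMA expression values on the log2 scale for every probe set of every array (RMA per the submitters' processing notes). The base was inferred from the range of the values. RMA corrects background, equalises array distributions and summarises probes, which removes overall shifts in brightness and compresses low signals. The RMA software is not stated. Chips were treated as normalized one by one, and levels were not compared between probe sets. Symbols came from GEO's platform annotation, updated through Entrez identifiers to RefSeq (GRCm38.p6), the source of the coordinates. Of 36701 probe sets, 29131 carried 1 symbol, 724 several and 6846 none.

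Tests used limma 3.58.1 in R 4.3.3, with functions tested on simulated data. The stage trend is a line over embryonic day through 5 pool means per chip, given as the slope times 4 days, with p-values of the 3 chips adjusted together. Stage comparisons used stage as a factor over 10 arrays per chip. Intervals are moderated 95% intervals, not adjusted for multiple tests. The number of pools, 1 per stage, limits the precision. The 10 members and the gene lists were chosen with earlier results of these data known. Named are every member probe set, up to 4 probe sets with the largest called change in each list, and 3 nearest courses for members spanning at least 1 log2 unit; genes named otherwise are said to be so. Alternatives covered scaling, a filter on dim probe sets, the prior variance, the adjustment, the labelling reactions, the fold minimum, and leaving out arrays and pools. No arrays were left out of the main values.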

Additional observations from a re-analysis of the deposited data

How the results depend on the processing

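The count of rising endothelial probe sets, 1, became 2 with quantile normalization again and with cyclic loess, 3 over 10 arrays with the pool as a random block, and 1 to 4 when an array or pool was left out. Of all probe sets, 10.9% rose with quantile normalization again and 9.98% with cyclic loess, beside 10.6% in the main fit. Shares of all probe sets were not counted for any fit with the pool as a random block, nor with single arrays left out. The endothelial falling count, 3, became 2 with arrays centred on their medians and with quantile normalization again. It was also 2 with the filter on dim probe sets and with an intensity trend in the prior variance. The same count was 1 with cyclic loess, 4 over 10 arrays with the pool as a random block, and 1 to 4 with an array or pool left out. Of all probe sets, 12.8% fell with centred arrays and with quantile normalization again, and 13.1% with cyclic loess. The Vwf call in e16.5 against e12.5 left 0 called with arrays centred on their medians, quantile normalization again and cyclic loess, and 0 to 1 with an array left out; without the fold minimum 11 were called. With a 1.5-fold minimum 1 was called in e14.5 against e13.5, and without one 2 there, 3 in e15.5 against e14.5, 3 in e16.5 against e15.5 and 3 at e14.5 against both ends. Without a minimum, 49.8% of all probe sets passed in e16.5 against e12.5 and 3.16% in e14.5 against e13.5. The shares were 10.7% in e15.5 against e14.5, 20.5% in e16.5 against e15.5 and 12.0% at e14.5 against both ends. The share at the 1.5-fold minimum was not counted. Among the other vessel genes the rising count, 9, was 5 among probe sets above the chip median, 14 over 10 arrays with the pool as a random block and 4 to 11 with an array or pool left out, and the falling count, 38, was 52 over 10 arrays with the pool as a random block and 22 to 40 with an array or pool left out. The signs of 3 changes near 0 turned: 100134_at of Eng (0.032 with centred arrays, 0.19 with cyclic loess, -0.10 to 0.057 with an array or pool left out), 97052_at of Vwf (-0.069 to 0.071) and 97773_at of Cd34 (-0.18 to 0.37). Under the filter on dim probe sets 3 endothelial probe sets were not tested. Of all probe sets above the median of their chip, 11.7% rose and 19.0% fell. Why these values moved was not tested. Replicate numbers did not pair the samples: differences between reactions 1 and 2 correlated between stages at -0.18 to 0.11. With the replicate number as a block (replicate block) beside the pool, 3 endothelial probe sets rose and 3 fell, with 12 and 50 of the other vessel genes.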
